A study of Mus musculus with 12 samples.

Results

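The cadherins and non-clustered protocadherins of the striatum were followed in mice that had drunk ethanol after varenicline or saline. The members are the genes of the count table whose symbol is Cdh or Pcdh followed by a number, except Cdh5, the cadherin of blood vessel endothelium. This rule found 34 of 24421 genes, 22 named Cdh and 12 named Pcdh, and it does not use any measured value. By textbook families, 17 are classical cadherins, 5 of type I and 12 of type II. Delta protocadherins make up 9, namely the delta-1 genes Pcdh1, Pcdh7, Pcdh9 and Pcdh11x and the delta-2 genes Pcdh8, Pcdh10, Pcdh17, Pcdh18 and Pcdh19. The remaining 8, namely Cdh13, Cdh16, Cdh17, Cdh23, Cdh26, Pcdh12, Pcdh15 and Pcdh20, are neither classical nor delta, so the set is wider than its family name. Of the 34 members, 30 had at least 10 counts in 6 or more libraries and were tested.

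Classical cadherins are membrane proteins whose outer repeats bind calcium and pair with a cadherin on the neighbouring cell, while the inner tail holds beta-catenin and, through alpha-catenin, the actin skeleton. Non-clustered protocadherins, each made from a gene of its own, lack the catenin-binding tail of classical cadherins, pair more weakly, and pass signals to actin regulators and phosphatases instead. In the brain both families differ from nucleus to nucleus and from layer to layer, take part in sorting axons and building synapses, and are made in different mixtures by cortex and striatum.

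RNA was sequenced from bilateral striatum of male C57BL/6J mice, inbred animals that take ethanol readily; their ages are not given here. Mice given varenicline at 2 mg/kg, a partial agonist at nicotinic acetylcholine receptors, supplied 6 libraries, and mice given saline supplied 6. Both groups drank 20% ethanol in the dark in sessions of 2 h over 3 cycles of 2 days, both had a saline injection in the first cycle, and the assigned injection came 30 min before the second session of each later cycle. Groups were formed after the first cycle so that earlier ethanol intake was equal, and striatum was taken after the last session. The labels do not say how many animals went into a library, and so a p-value measures the spread between libraries, which may be technical.

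Library totals ran from 13340420 to 24522349 counts with varenicline and from 14040416 to 27917715 with saline, and no 2 of them agreed within counting noise (66 pairs). Markers of striatal projection neurons were abundant in every library, at a summed 10123 to 16192 CPM with varenicline and 9359.8 to 14699 CPM with saline, and all 16 were higher on average with varenicline, 6 at an unadjusted p under 0.05 (against 7.27% of all tested genes), with a median log2 fold change of 0.20. Of 10 astrocyte markers, 9 were higher on average, 3 at that p, with a summed 6211 to 6929 CPM with varenicline and 6027 to 6508 CPM with saline. All 14 markers of cortical excitatory neurons were detected too, at a summed 552 to 1743 CPM with varenicline and 1268 to 2023 CPM with saline, with varenicline 6 at 1743 CPM, inside the saline range. Of these 14, 13 were lower on average with varenicline, 11 at an unadjusted p under 0.05, where 9.64% of all tested genes reached that on the lower side. Of 12 markers of septum and pallidum, 11 were higher on average, 9 at that p, with a summed 78.1 to 182 CPM with varenicline and 66.6 to 101 CPM with saline. Of these 12, Prlr was highest in varenicline 1, 2 and 5 and saline 2 and 5, the libraries highest in choroid plexus markers. The septal score used further on includes Prlr, so it is not a measure of septum alone. In bulk tissue, fewer cells of a type and less RNA per cell cannot be told apart, and the share of neighbouring tissue in each dissection was not measured apart from such markers.

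Levels within the set spanned a wide range when CPM, the counts scaled to a common total by TMM, were divided by exon length in kilobases. Cdh13, or T-cadherin, an unusual cadherin held in the membrane by a lipid anchor, was the most abundant member, with means of 35.04 ± 1.41 with varenicline and 36.99 ± 4.68 with saline in this unit (SD, n = 6 each). Cdh2, the N-cadherin of synapses, stood at 21.8 ± 1.96 with varenicline and 23.3 ± 0.932 with saline, and Pcdh1 at 19.3 ± 2.89 with varenicline and 22.3 ± 3.45 with saline, in the same unit. Pcdh9, Cdh8, Pcdh10, Cdh11, Cdh10 and Pcdh17 followed, with averages over all 12 libraries between 10.5 and 17.3 CPM per kilobase. At the low end, Cdh26, Pcdh12 and Cdh23 were tested at 0.0987 to 0.174 CPM per kilobase. In summed CPM, the 34 members took 1181 ± 24.2 CPM with varenicline and 1206 ± 21.2 CPM with saline (SD, n = 6 each), from 1142 to 1214 CPM and from 1181 to 1243 CPM, so the groups overlapped.

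**Figure D1:**
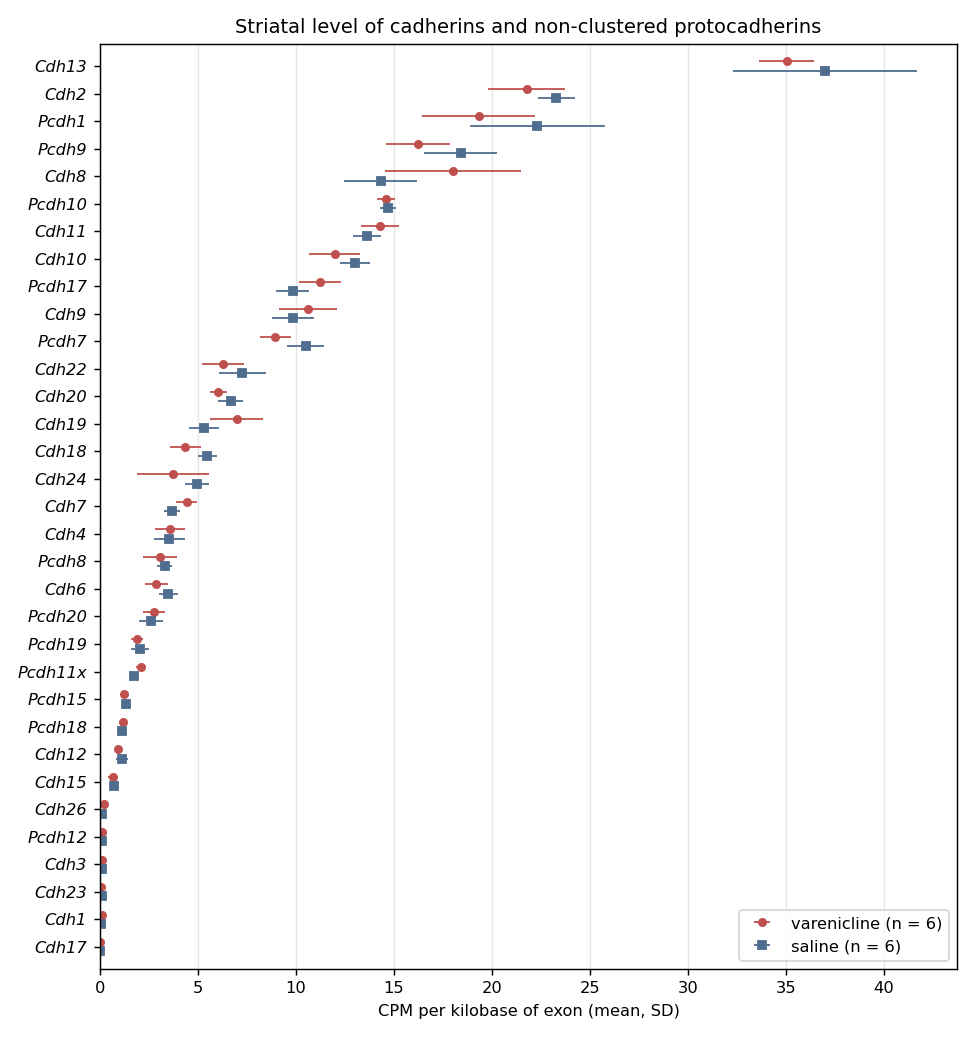
Level of each detected member in CPM per kilobase of exon (x axis, linear), with the mean and SD of 6 varenicline libraries (circles) and 6 saline libraries (squares); bars that would pass below 0 end at 0. Cdh13 lies apart at the top, and the groups differ little beside the spread among members.

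Of the 4 members too scarce to test, Cdh3 and Cdh1 lay just outside the threshold, with at least 10 counts in 5 and 4 libraries, and Cdh26 lay just inside it, in 7. Cdh3, the epithelial P-cadherin, had 58 counts over the varenicline libraries and 66 over the saline libraries, with 0 to 33 per library. Cdh1, the epithelial E-cadherin, had 46 counts with varenicline and 50 with saline, and Cdh17, the cadherin of intestine, had 3 and 4. Cdh16, the cadherin of kidney, had 0 counts in all 12 libraries, where 3 counts would correspond to 0.109 to 0.221 CPM depending on the library, a limit that covers counting error only. Of the 30 tested members, 27 had at least 10 counts in every library; Cdh23, Pcdh12 and Cdh26 did not.

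Between varenicline and saline the members went both ways. On the higher side stood the type II cadherins Cdh19, Cdh8 and Cdh7 with the protocadherins Pcdh11x and Pcdh17, and on the lower side Cdh18, Cdh6, Pcdh7 and Pcdh9, with log2 fold changes between -0.33 and 0.39; the scarce Cdh26 had 0.69. By edgeR's adjusted p, 0 of the 30 were called, as were 0 of all 15111 genes tested (0%); at an unadjusted p under 0.05 there were 2556 genes. DESeq2 also called 0 of the 26 members for which it gave an adjusted p, against 3.33% of all genes with one. At an unadjusted p under 0.05 there were 10 of 30 members (33.3%), where 16.9% of all tested genes reached it. By direction there were 6 higher, against 7.27% of all tested genes, and 4 lower, against 9.64%. The median log2 fold change of the 30 was -0.10, with 11 above 0 and 19 below, beside 0.0074 over all genes tested, with 7903 above 0 and 7208 below. The groups overlapped for all 30 members, where 0.43% of all tested genes were higher and 0.324% lower with no overlap. The adjusted calls depend on the fit. In edgeR without varenicline 6, described further on, 6 of 30 passed (20%, against 10.6% of all tested genes). In limma-voom with sample weights 8 of 30 passed (26.7%, against 13.9% of all tested genes).

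**Figure D2:**
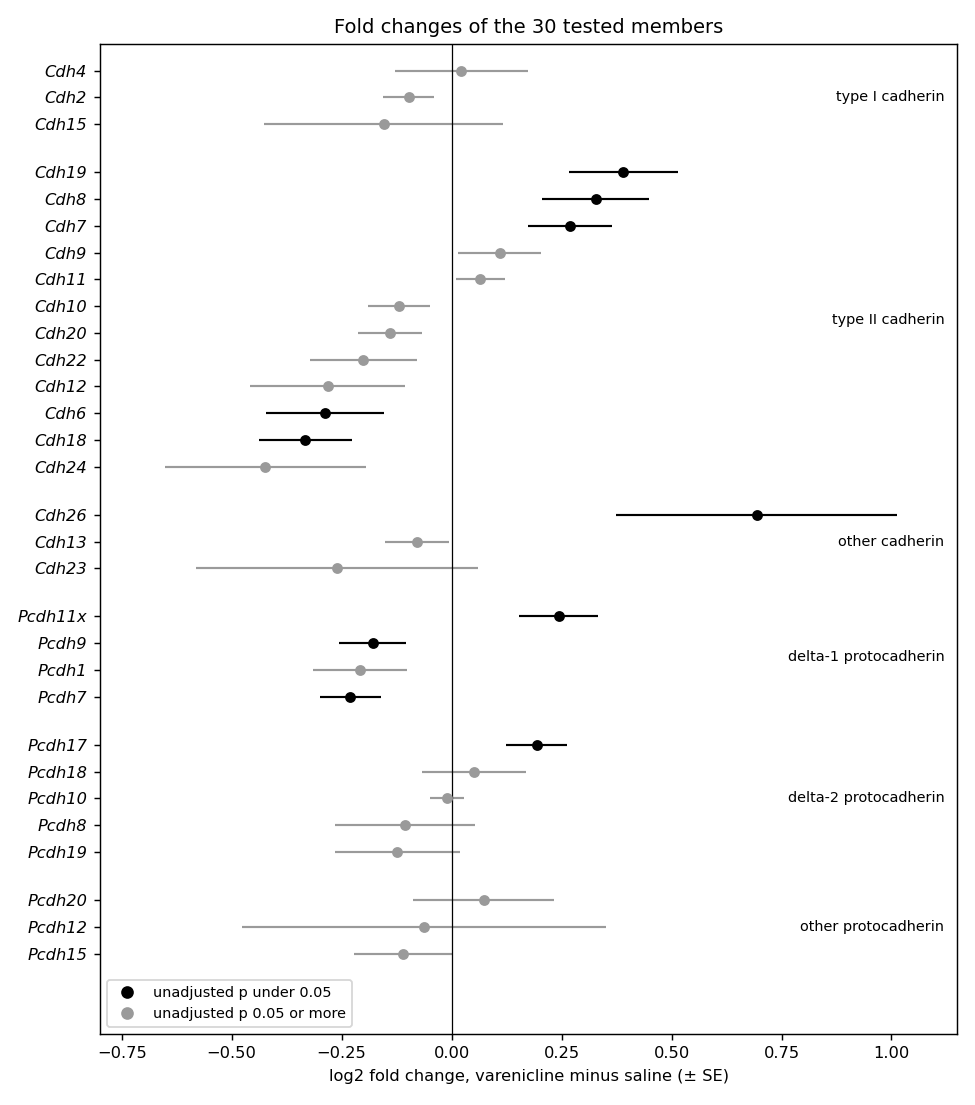
Log2 fold change with its standard error (x axis, varenicline minus saline) of the 30 tested members, grouped by family; black points have an unadjusted p under 0.05, grey points do not. The type II cadherins run from 0.39 for Cdh19 to -0.42 for Cdh24.

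The promoters of 5 members are shown because these had, on their side, the smallest p among those with a RefSeq entry within 100 bases of the start in the count table, 3 of them higher and 2 lower on average. Each window runs from 250 bases before to 50 bases after the RefSeq start on GRCm38.p6, the build also called mm10, written along the strand of the gene. The windows are chr1:109983473-109983772, chr14:84443313-84443612, chr5:57717831-57718130 and chr15:23036213-23036512 on the plus strand and chr8:99416422-99416721 on the minus strand. Capitals mark GGGCGG, the GC box, or TATAAA on either strand, motifs that cannot overlap each other.
Cdh7: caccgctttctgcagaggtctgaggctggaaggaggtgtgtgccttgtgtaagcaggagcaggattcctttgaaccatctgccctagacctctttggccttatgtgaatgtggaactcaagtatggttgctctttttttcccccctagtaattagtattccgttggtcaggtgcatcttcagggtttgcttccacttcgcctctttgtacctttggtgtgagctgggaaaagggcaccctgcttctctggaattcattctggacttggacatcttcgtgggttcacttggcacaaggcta
Pcdh17: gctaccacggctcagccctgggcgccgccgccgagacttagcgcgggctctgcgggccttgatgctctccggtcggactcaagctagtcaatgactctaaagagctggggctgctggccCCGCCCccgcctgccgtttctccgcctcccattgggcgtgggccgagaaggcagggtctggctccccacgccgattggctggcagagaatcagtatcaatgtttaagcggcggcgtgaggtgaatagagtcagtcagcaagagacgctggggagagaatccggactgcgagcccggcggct
Cdh8: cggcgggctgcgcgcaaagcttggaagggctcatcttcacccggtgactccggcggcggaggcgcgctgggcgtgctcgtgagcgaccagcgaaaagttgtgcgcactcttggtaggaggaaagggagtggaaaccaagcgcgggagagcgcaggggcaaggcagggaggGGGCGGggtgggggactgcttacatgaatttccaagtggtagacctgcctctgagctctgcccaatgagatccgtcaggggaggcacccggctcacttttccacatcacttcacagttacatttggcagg
Pcdh7: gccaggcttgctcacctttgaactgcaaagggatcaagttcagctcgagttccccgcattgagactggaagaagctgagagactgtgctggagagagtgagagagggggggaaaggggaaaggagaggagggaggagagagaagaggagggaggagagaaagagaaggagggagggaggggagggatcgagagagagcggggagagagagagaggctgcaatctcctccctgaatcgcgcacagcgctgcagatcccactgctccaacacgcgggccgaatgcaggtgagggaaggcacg
Cdh18: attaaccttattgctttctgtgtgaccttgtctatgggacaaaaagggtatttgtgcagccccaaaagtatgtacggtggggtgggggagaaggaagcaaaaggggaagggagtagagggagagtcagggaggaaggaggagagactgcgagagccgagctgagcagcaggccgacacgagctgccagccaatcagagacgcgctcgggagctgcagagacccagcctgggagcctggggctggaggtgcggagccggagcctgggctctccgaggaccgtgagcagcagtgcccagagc

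Pcdh17 and Cdh8, both higher on average with varenicline, held 1 GC box each, and no window of the 5 held TATAAA. Of the 22 members with a RefSeq window, 9 held GGGCGG and 2 held TATAAA, where 35.7% and 13.6% of all 32851 windows did. The number of CG pairs ran from 4 in the window of Cdh7 to 26 in that of Pcdh17, with a median of 11.5 over the 22 members and 7 over all windows. A match describes letters in a window and not a bound site.

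Among type II cadherins, Cdh19, a gene best known from neural crest and Schwann cell precursors, had the smallest p on the higher side. Cdh19 had 27.9, 20.7, 21.3, 23.4, 19.01 and 15.6 CPM in varenicline libraries 1 to 6, against 16.99, 20.7, 14.9, 14.4, 14.8 and 15.6 CPM in saline libraries 1 to 6. Varenicline 1 was the highest of all 12 libraries and varenicline 6 lay among the saline values, so that 3 of the 6 varenicline libraries were inside the saline range. Means were 21.3 ± 4.16 CPM with varenicline and 16.2 ± 2.37 CPM with saline (SD, n = 6 each), with a log2 fold change of 0.39 (SE 0.124), unadjusted p = 0.00657, edgeR adjusted p = 0.157. With the score of cortical markers, their mean log2 CPM, as a covariate it was 0.36, and with that of septal markers 0.19 (unadjusted p = 0.0605 and 0.206). The gene (ENSMUSG00000047216, chromosome 1, 110889195 to 110977372 on mm10) lies 0.750 Mb from Cdh7, the next member on that chromosome. Beside it, 11 of 12 oligodendrocyte markers were higher on average with varenicline, 5 at an unadjusted p under 0.05 (against 7.27% of all tested genes). They summed to 10671 to 14033 CPM with varenicline and 11324 to 13978 CPM with saline, and their part in the result was not tested.

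Cdh8 (ENSMUSG00000036510, chromosome 8, 99024471 to 99416471 on mm10), a type II cadherin of cortical and striatal circuits whose promoter is shown above, was, per kilobase, the most abundant member on the higher side. Cdh8 had 87.8, 99.1, 100.3, 105, 115 and 62.5 CPM in varenicline libraries 1 to 6, against 60.1, 71.96, 79.3, 89.1, 72.9 and 80.6 CPM in saline libraries 1 to 6. Varenicline 2 to 5 lay above every saline library, while varenicline 6 was lower than all saline libraries but saline 1. It averaged 95.02 ± 18.3 CPM with varenicline and 75.7 ± 9.82 CPM with saline, a log2 fold change of 0.33 (SE 0.121), unadjusted p = 0.0161, edgeR adjusted p = 0.196. Without varenicline 6 the log2 fold change of Cdh8 was 0.42 (edgeR adjusted p = 0.00595), and with the score of cortical markers as a covariate it was -0.055 (unadjusted p = 0.615), the opposite sign. With both changes it was 0.12 (edgeR unadjusted p = 0.400).

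Cdh7 (ENSMUSG00000026312, chromosome 1, 109983737 to 110139001 on mm10), a type II cadherin, was above the saline mean in all 6 varenicline libraries. Cdh7 had 14.6, 13.1, 18.1, 13.6, 14.7 and 15.01 CPM in varenicline libraries 1 to 6, against 13.4, 12.9, 13.5, 12.3, 12.1 and 9.79 CPM in saline libraries 1 to 6. All but varenicline 2 were above the highest saline value, and saline 6 was the lowest of the 12. Means were 14.8 ± 1.76 CPM with varenicline and 12.3 ± 1.37 CPM with saline, with a log2 fold change of 0.27 (SE 0.0956), unadjusted p = 0.0127, edgeR adjusted p = 0.187. It was 0.20 with the cortical score in the fit and 0.19 without varenicline 1 and 3, the libraries highest in septal markers (unadjusted p = 0.140 and 0.0666).

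On the lower side, Cdh18 (ENSMUSG00000040420, chromosome 15, 23036463 to 23474418 on mm10), a type II cadherin of the central nervous system, had the smallest p of its class. Cdh18 had 14.99, 12.1, 10.3, 10.5, 10.03 and 14.1 CPM in varenicline libraries 1 to 6, against 16.99, 15.4, 14.99, 13.5, 15.8 and 13.7 CPM in saline libraries 1 to 6. Varenicline 2 to 5 lay below every saline library, and varenicline 1 and 6 lay inside the saline range. Means were 12 ± 2.12 CPM with varenicline and 15.1 ± 1.31 CPM with saline, with a log2 fold change of -0.33 (SE 0.106), unadjusted p = 0.00682, edgeR adjusted p = 0.159. The log2 fold change of Cdh18 was -0.38 without varenicline 6 (edgeR adjusted p = 0.0303) and -0.056 with the cortical score (unadjusted p = 0.609).

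Cdh6 (ENSMUSG00000039385, chromosome 15, 13034200 to 13173639 on mm10), the K-cadherin of kidney and developing brain, had an unadjusted p close to the threshold. Cdh6 had 6.64, 6.49, 5.86, 8.05, 8.23 and 10.1 CPM in varenicline libraries 1 to 6, against 9.21, 8.48, 9.48, 9.03, 11.5 and 7.61 CPM in saline libraries 1 to 6. In varenicline 1 to 3 it was below every saline library, and in varenicline 6 above all of them but saline 5. Means were 7.56 ± 1.55 CPM with varenicline and 9.21 ± 1.28 CPM with saline, with a log2 fold change of -0.29 (SE 0.134), unadjusted p = 0.0486, edgeR adjusted p = 0.293. It was -0.39 without varenicline 6 (edgeR adjusted p = 0.0578), -0.053 with the cortical score and -0.17 with the septal score (unadjusted p = 0.752 and 0.317).

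Cdh24, whose product binds catenins as other type II cadherins do, did not reach that p and was spread widely among the varenicline libraries. It averaged 10.2 ± 5.01 CPM with varenicline and 13.5 ± 1.62 CPM with saline (SD, n = 6 each), with a log2 fold change of -0.42 (SE 0.229), unadjusted p = 0.0837, edgeR adjusted p = 0.358. Varenicline 6 had 19.4 CPM, the highest of the 12 libraries, while varenicline 2 to 5 lay between 6.07 and 9.16 CPM, below the lowest saline value of 10.8 CPM. Varenicline 1, at 11.9 CPM, lay inside the saline range. Without varenicline 6 the log2 fold change of Cdh24 was -0.71 (edgeR adjusted p = 0.00852), and with the cortical score in the fit, in all libraries, 0.19. With both changes it was -0.085 (edgeR unadjusted p = 0.701).

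The other 6 type II cadherins had smaller or less certain differences. Cdh10, a close relative of Cdh6 and Cdh9, averaged 40.8 ± 4.40 CPM with varenicline and 44.3 ± 2.56 CPM with saline (SD, n = 6 each; log2 fold change -0.12), with 5 of 6 varenicline libraries outside the saline range, 1 above it and 4 below. Cdh9, which takes part in making synapses of the hippocampus, averaged 30.8 ± 4.31 CPM with varenicline and 28.6 ± 3.07 CPM with saline (log2 fold change 0.11), and Cdh11, the osteoblast cadherin also made in brain, 60.2 ± 4.10 CPM with varenicline and 57.5 ± 3.05 CPM with saline (0.065). Both thus differed by less than the SD within a group. Cdh20 averaged 22.5 ± 1.57 CPM with varenicline and 24.8 ± 2.42 CPM with saline (-0.14), all 6 varenicline libraries being below the saline mean and 3 of them inside the saline range. Cdh22 averaged 22.6 ± 3.91 CPM with varenicline and 26.1 ± 4.29 CPM with saline (-0.20), and Cdh12 5.36 ± 0.950 CPM with varenicline and 6.52 ± 1.74 CPM with saline (-0.28). For Cdh12 the SD in log2 CPM was 0.238 with varenicline and 0.409 with saline.

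Type I cadherins showed no member at an unadjusted p under 0.05. Cdh2 had 113, 106, 93.9, 97.9, 88.8 and 107 CPM in varenicline libraries 1 to 6, against 109, 109, 113, 101, 112 and 106 CPM in saline libraries 1 to 6. Cdh2 thus overlapped between the groups, with varenicline 3, 4 and 5 below the lowest saline library, and averaged 101 ± 9.10 CPM with varenicline and 108 ± 4.33 CPM with saline, a log2 fold change of -0.10 (SE 0.0580), unadjusted p = 0.114, edgeR adjusted p = 0.405. Cdh4, or R-cadherin, which pairs with itself and with N-cadherin, averaged 22.8 ± 4.83 CPM with varenicline and 22.5 ± 5.06 CPM with saline (log2 fold change 0.022, below 0 when saline 2, 4 or 6 or varenicline 3 or 6 was left out).

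Cdh15, the M-cadherin of muscle, was scarce at 1.90 and 2.11 CPM with varenicline and saline (log2 fold change -0.15). In varenicline 3 it had 15 counts, and without that library the log2 fold change was 0.039.

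Among the cadherins of other build, Cdh13 combined the highest level with overlapping groups. Cdh13 had 82.5, 84.4, 78.3, 75.4, 81.5 and 79.4 CPM in varenicline libraries 1 to 6, against 80.3, 72.03, 77.98, 82.4, 96.8 and 98.7 CPM in saline libraries 1 to 6. All varenicline libraries lay inside the saline range, which saline 5 and 6 widened upward, and the log2 fold change was -0.079 (SE 0.0719), unadjusted p = 0.291, edgeR adjusted p = 0.609. Cdh23, which with Pcdh15 forms the tip links of hair cells in the ear, had 8 to 48 counts per library, 1.01 ± 0.407 CPM with varenicline and 1.21 ± 0.463 CPM with saline and a log2 fold change of -0.26. Pcdh15, its partner, averaged 19.8 ± 2.48 CPM with varenicline and 21.4 ± 3.58 CPM with saline, with a log2 fold change of -0.11.

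Cdh26 (ENSMUSG00000039155, chromosome 2, 178430515 to 178487366 on mm10), a cadherin described in epithelium, was the scarcest member at an unadjusted p under 0.05. It had 13, 14, 14, 9, 8 and 16 counts in varenicline libraries 1 to 6, against 4, 13, 6, 13, 6 and 13 counts in saline libraries 1 to 6. The same counts gave 0.652 ± 0.230 CPM with varenicline and 0.387 ± 0.144 CPM with saline and a log2 fold change of 0.69 (SE 0.320), unadjusted p = 0.0462, edgeR adjusted p = 0.286. Counts of 10 or more were reached in 4 varenicline libraries and 3 saline libraries, and 4 of the 6 varenicline libraries lay inside the saline range. At these counts the value is imprecise, and DESeq2 gave it no adjusted p; without varenicline 6 its unadjusted p was 0.112.

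Of the delta-1 protocadherins, Pcdh7 (ENSMUSG00000029108, chromosome 5, 57718021 to 58132240 on mm10), whose tail binds protein phosphatase 1 alpha, had the smallest p of all members. Pcdh7 had 72.05, 92.00, 78.2, 86.7, 76.8 and 82.9 CPM in varenicline libraries 1 to 6, against 92.2, 109, 87.1, 99.03, 99.7 and 86.2 CPM in saline libraries 1 to 6. The 6 varenicline values lay below the saline mean and 4 were below every saline library, with varenicline 2 and 4 inside the saline range. Means were 81.4 ± 7.23 CPM with varenicline and 95.5 ± 8.70 CPM with saline, with a log2 fold change of -0.23 (SE 0.0694), unadjusted p = 0.00460, edgeR adjusted p = 0.147. It was -0.23 without varenicline 6 and -0.17 with the cortical score (unadjusted p = 0.0902). The sources used here do not state whether counting used strand. The exons of Pcdh7 overlap those of a gene on the opposite strand in GENCODE vM21, by up to 2181 bases per annotated exon of that gene. Such overlaps also exist for Cdh8, Cdh9, Pcdh8, Pcdh10 and Pcdh19.

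Pcdh9 (ENSMUSG00000055421, chromosome 14, 93013700 to 93890669 on mm10) was, after Pcdh1, the most abundant delta-1 member per kilobase and was lower on average with varenicline. Pcdh9 had 90.7, 113, 98.7, 96.7, 93.5 and 114 CPM in varenicline libraries 1 to 6, against 119, 123, 108, 97.2, 129.5 and 112 CPM in saline libraries 1 to 6. No varenicline library reached the saline mean, and 3 of the 6 lay inside the saline range. Means were 101 ± 10.2 CPM with varenicline and 115 ± 11.6 CPM with saline, with a log2 fold change of -0.18 (SE 0.0760), unadjusted p = 0.0317, edgeR adjusted p = 0.249. With the cortical score it was -0.043 (unadjusted p = 0.653).

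Pcdh11x (ENSMUSG00000034755, chromosome X, 120290327 to 120910618 on mm10), an X-linked delta-1 gene, went the other way. Pcdh11x had 17.6, 18.4, 19.1, 20.2, 20.3 and 14.3 CPM in varenicline libraries 1 to 6, against 16.2, 15.9, 17.2, 15.9, 13.6 and 14.05 CPM in saline libraries 1 to 6. Varenicline 1 to 5 were above every saline library and varenicline 6 lay at the low end of the saline values. Means were 18.3 ± 2.24 CPM with varenicline and 15.5 ± 1.37 CPM with saline, with a log2 fold change of 0.24 (SE 0.0899), unadjusted p = 0.0158, edgeR adjusted p = 0.196. It was 0.31 without varenicline 6 (edgeR adjusted p = 0.0188) and 0.066 with the cortical score (unadjusted p = 0.568). The part of cortical or projection neuron markers in the values of Pcdh11x, Cdh8 and Pcdh17 was not tested apart from that fit.

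Pcdh1 had 69.8, 74.8, 62.9, 76.2, 72.3 and 96.3 CPM in varenicline libraries 1 to 6, against 77.8, 69.2, 82.6, 88.6, 98.7 and 106 CPM in saline libraries 1 to 6. Pcdh1, a delta-1 gene also studied in airway epithelium, thus had 5 varenicline libraries inside the saline range, with varenicline 6 the highest of its group. Means were 75.4 ± 11.3 CPM with varenicline and 87.1 ± 13.5 CPM with saline, with a log2 fold change of -0.21 (SE 0.107), unadjusted p = 0.0687, edgeR adjusted p = 0.332.

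Among the delta-2 protocadherins, Pcdh17 (ENSMUSG00000035566, chromosome 14, 84443563 to 84537060 on mm10), which acts at synapses of corticobasal ganglia circuits in mice, was higher on average. Pcdh17 had 115, 106, 116, 102, 114 and 89.5 CPM in varenicline libraries 1 to 6, against 82.5, 92.2, 99.8, 105, 89.6 and 92.2 CPM in saline libraries 1 to 6. Varenicline 1, 2, 3 and 5 were above every saline library, and varenicline 6 was below the saline mean. Means were 107 ± 10.2 CPM with varenicline and 93.5 ± 7.86 CPM with saline, with a log2 fold change of 0.19 (SE 0.0700), unadjusted p = 0.0143, edgeR adjusted p = 0.192. Without varenicline 6 it was 0.24 (edgeR adjusted p = 0.0199), with the cortical score 0.020 and with the septal score 0.12 (unadjusted p = 0.790 and 0.208).

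Pcdh10, a delta-2 gene that recruits the WAVE actin complex and has been linked to autism, had the most counts of any member and the smallest spread. It averaged 172 ± 5.63 CPM with varenicline and 173 ± 4.70 CPM with saline (SD, n = 6 each), a log2 fold change of -0.010 (SE 0.0394), with an SD of 0.0476 and 0.0391 in log2 CPM with varenicline and saline. By comparison the median SD over the 30 tested members was 0.227 with varenicline and 0.180 with saline. Pcdh8, or arcadlin, which is induced by neuronal activity, averaged 12.3 ± 3.55 CPM with varenicline and 13.2 ± 1.57 CPM with saline (-0.11), spread from 8.63 to 16.7 CPM with varenicline, against 11.4 to 15.6 CPM with saline. Pcdh19, mutated in an epilepsy of girls, averaged 19.5 ± 3.29 CPM with varenicline and 21.3 ± 4.78 CPM with saline (-0.12), and Pcdh18 6.20 ± 0.925 CPM with varenicline and 5.98 ± 0.602 CPM with saline (0.051). Outside the delta group, Pcdh20 averaged 14.5 ± 2.93 CPM with varenicline and 13.8 ± 3.23 CPM with saline (0.073), with all varenicline libraries inside the saline range. Pcdh12, a protocadherin of endothelium, had 2 to 41 counts per library, 0.701 ± 0.391 CPM with varenicline and 0.735 ± 0.389 CPM with saline and a log2 fold change of -0.063. Of 12 endothelial markers beside Pcdh12, 5 were higher and 7 lower on average. At an unadjusted p under 0.05 were 2 and 0 of them, against 7.27% and 9.64% of all tested genes. They summed to 380.2 to 439.6 CPM with varenicline and 394 to 431 CPM with saline, and their part in the values of Pcdh12 was not tested. None of the markers of these lists was at 0 in all libraries.

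**Figure D3:**
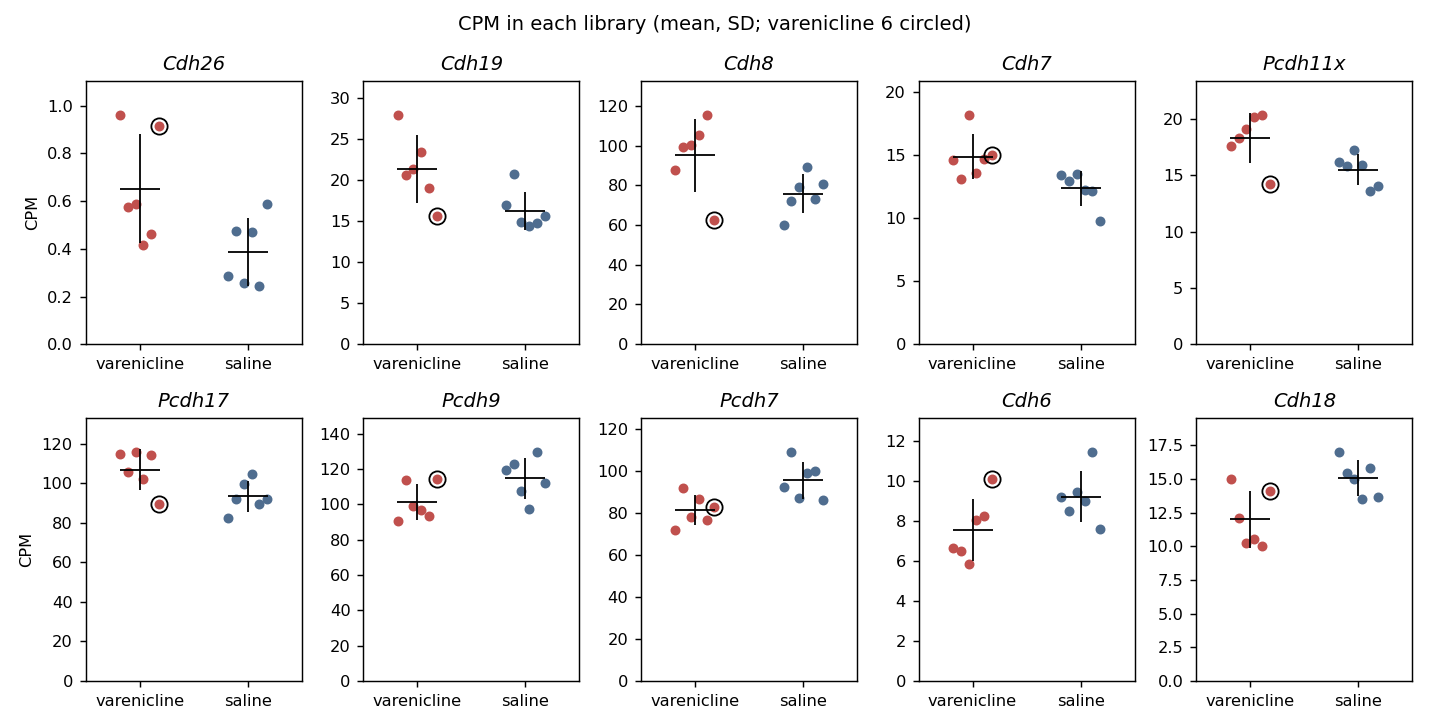
CPM (y axis, from 0) in each library for the 10 members at an unadjusted p under 0.05, with varenicline libraries left of saline libraries and the mean and SD as black lines. The circled library, varenicline 6, lies inside the saline range for 7 of the 10 members.

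Library by library, varenicline 6 lay nearer to saline than to its own group in the cortical markers, in most members and in most genes. The cortical score, the mean log2 CPM of the 14 markers, was 5.98 in varenicline 6 and 3.71 to 5.09 in the other varenicline libraries, against 5.48 to 6.12 with saline. In varenicline 6 the log2 CPM was nearer to the saline mean than to the mean of the other varenicline libraries for 24 of the 30 tested members, against 68.4% of all tested genes, where the other varenicline libraries had 7 to 12 members and 34.7% to 40.9% of genes. Varenicline 6 lay inside the saline range for 25 of the 30, against 71.9% of all tested genes, and the other varenicline libraries for 13 to 18, against 54.5% to 64.2%, so that library stood apart over the whole table. Without it, 6 of 30 members passed an edgeR adjusted p of 0.05 (20%, against 10.6% of all tested genes). These were Cdh19, Cdh8, Pcdh17 and Pcdh11x as higher, against 3.06% of all tested genes, and Cdh24 and Cdh18 as lower, against 7.58%. Leaving out the varenicline library nearest to saline favours a larger difference between the groups, so these calls are not separate support for one. With the cortical score in the fit in all 12 libraries, 0 passed (against 0.0794%) and 1 of 30, Cdh26, had an unadjusted p under 0.05 (3.33%, against 4.86% of all tested genes), and 11 members changed sign. With both changes, 0 passed (0% of all tested genes) and 2 of 30 had an unadjusted p under 0.05 (against 10.5%), Cdh19 at 0.79 and Cdh23 at -1.60 (unadjusted p = 0.000649 and 0.0130). In that fit every varenicline library had a lower cortical score than every saline library. No libraries of the groups are then compared at the same score, so these values rest on extrapolation. Cdh23 also had only 8 to 48 counts per library. With the score of septal markers as a covariate 1 of 30, Cdh18, had an unadjusted p under 0.05 (against 7.09%), and without varenicline 1 and 3, the libraries highest in that score, 3 were higher and 3 lower (against 4.26% and 6.08%). Both scores differ between the groups, so a fit with one also removes what the treatment shares with it, and neighbouring tissue and treatment cannot be told apart here.

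**Figure D4:**
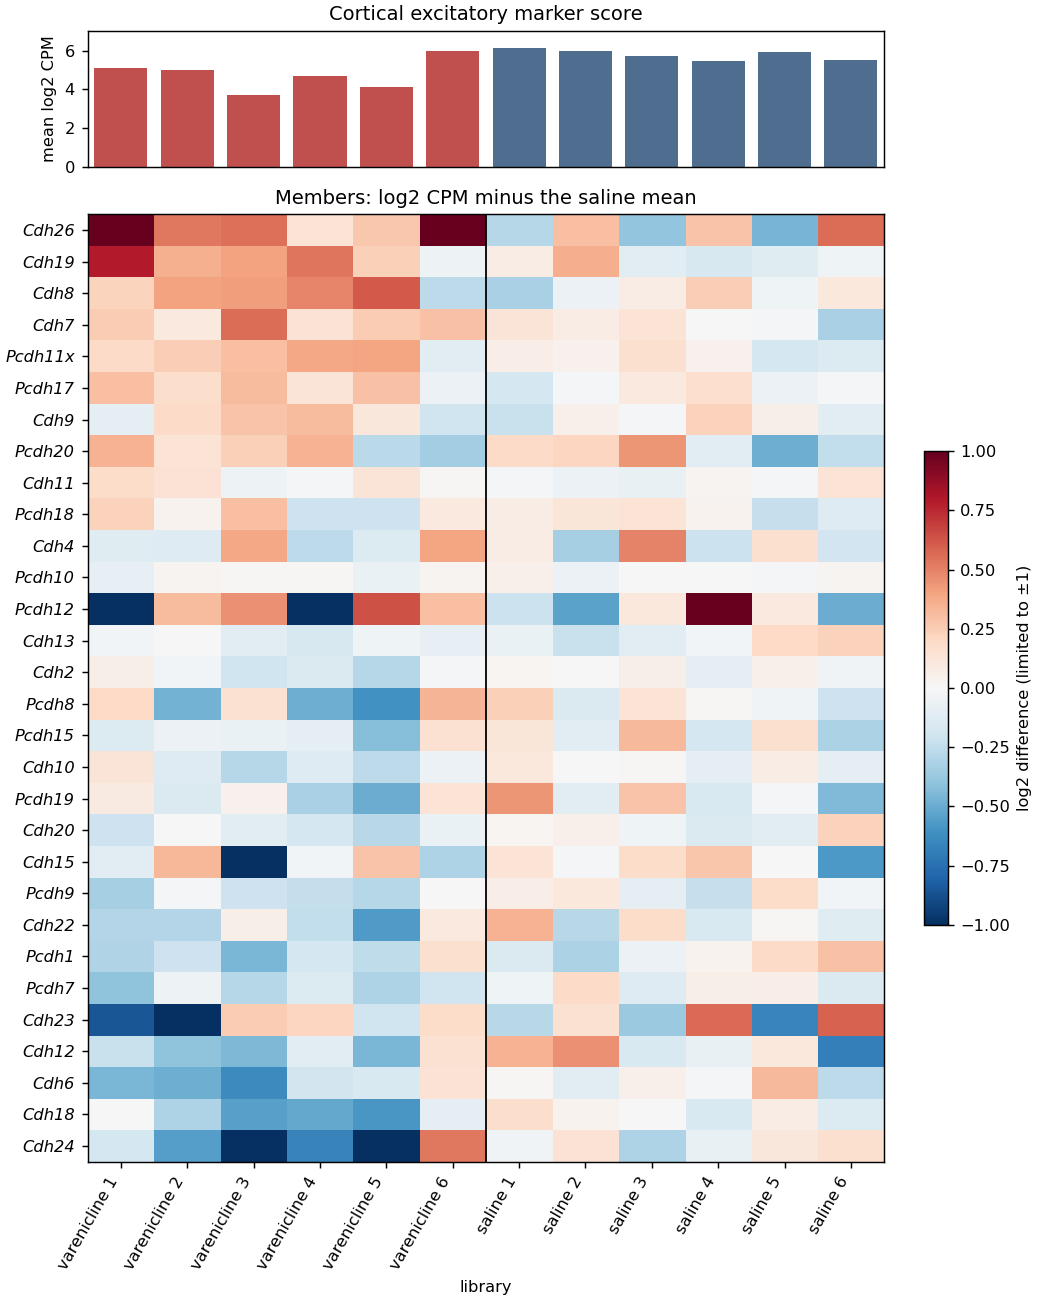
Cortical excitatory marker score per library (bars, mean log2 CPM) above the log2 CPM of each tested member minus its saline mean (colour, limited to ±1), with varenicline libraries left of saline libraries and members in order of fold change. In varenicline 6 the colours of Cdh8, Pcdh17 and Pcdh11x, higher elsewhere in that group, fall below 0.

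**Figure D5:**
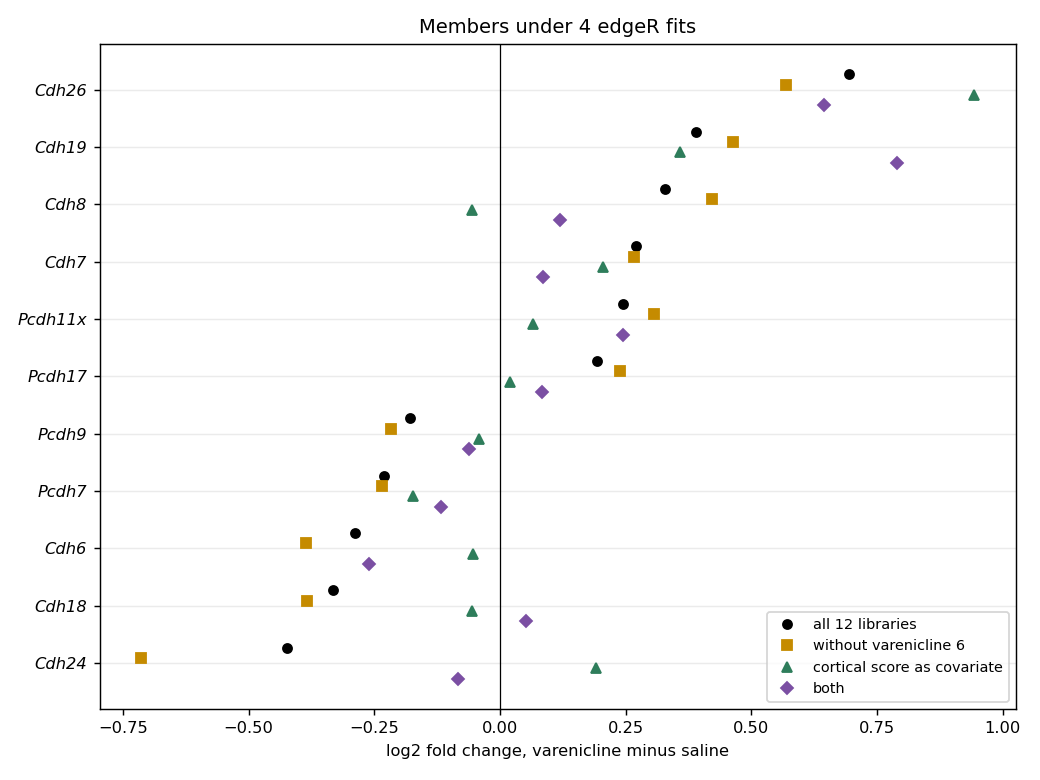
Log2 fold change (x axis, varenicline minus saline) of 11 members in 4 edgeR fits: all libraries, without varenicline 6, with the cortical score in the fit, and with both changes. Cdh19 and Cdh26 stay above 0.35 in these 4 fits, while Cdh8 and Cdh24 have the opposite sign with the covariate in all 12 libraries. In the fit with the septal score, not shown, Cdh19 had 0.19 and Cdh26 0.65. Cdh26 had only 4 to 16 counts per library. In the fit with both changes the cortical scores of the groups do not overlap.

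Members that are neighbours on a chromosome did not all share a direction. A total of 5 members lie in a row on chromosome 15, with gaps of 1.45 to 3.60 Mb. In that row the log2 fold changes were -0.29 for Cdh6, 0.11 for Cdh9, -0.12 for Cdh10, -0.28 for Cdh12 and -0.33 for Cdh18. On chromosome 1, the neighbours Cdh7 and Cdh19 were both higher on average (0.27 and 0.39), and Cdh20, 4.99 Mb before Cdh7, had -0.14. On chromosome 14, Pcdh8, Pcdh17, Pcdh20 and Pcdh9, each 3.93 to 4.67 Mb from the next, had -0.11, 0.19, 0.073 and -0.18.

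Genes for proteins that work with cadherins were taken from 4 fixed lists, chosen with earlier results of these data known, and none passed an adjusted p of 0.05 in edgeR. Of 11 catenins and relatives, 1 reached an unadjusted p under 0.05 on the higher side and 2 on the lower, against 7.27% and 9.64% of all tested genes, with a median log2 fold change of -0.041. Vcl, which encodes vinculin, had 0.27, while Ctnna2, the neuronal alpha-catenin, averaged 133 CPM with varenicline and 149 CPM with saline (-0.16) and Ctnnd2, the neuronal delta-catenin, had -0.17. Jup, or plakoglobin, had -0.12 and did not reach that p. Of 16 adhesion partners and cleaving enzymes, 0 were higher and 3 lower at that p. These were Magi1, a junction scaffold, at -0.26, and the nectin genes Pvrl1 and Pvrl2 at -0.33 and -0.28. The groups did not overlap for Pvrl2, as for 0.324% of all tested genes on the lower side. The median of the list was -0.11, and Mllt4, which encodes the nectin partner afadin, had -0.11.

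Among 11 genes of the WAVE complex and other protocadherin tail partners, 0 reached an unadjusted p under 0.05 on the higher side. On the lower side there was 1, namely Brk1, a small WAVE subunit, at -0.11. Of all tested genes, 7.27% and 9.64% reached that p on these sides, so the list was near that share. Cyfip2 had -0.11, Abi2 0.13 and Abi1 0.10, none at that p, and the median of the list was -0.012. Of 15 tested atypical and desmosomal cadherins, 0 were higher and 4 lower at that p, against 7.27% and 9.64%, with a median of -0.084. These included the calsyntenins, postsynaptic proteins with cadherin repeats: Clstn1 averaged 828 CPM with varenicline and 1038 CPM with saline (-0.33), and Clstn2 and Clstn3 had -0.40 and -0.15. Celsr2, a flamingo cadherin of planar cell polarity, had -0.18. With the cortical score in the fit, Vcl and Brk1 were at an unadjusted p under 0.05 and no other gene of these 4 lists was.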

How the data were processed

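RNA of 12 striatal samples was made into TruSeq libraries and read as single 150 nt reads, per the labels' protocols. The authors deposited counts per gene, with the summed exon length in bases as another column of the deposited table. They also deposited FPKM and, in a further table, scaled values per gene here treated as a signal, named after Cuffnorm per the file headers and names. The submitters' processing notes name Trimmomatic, FastQC, TopHat2, featureCounts, DESeq2, Cuffdiff, Cuffnorm and the build mm10; their versions, the annotation and strand use were not stated.

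From the counts, genes with at least 10 counts in 6 or more libraries (15111 of 24421) were fitted with the quasi-likelihood test of edgeR 4.0.16 (TMM, R 4.3.3), varenicline minus saline, with Benjamini-Hochberg adjustment over all genes tested; no row lacked a gene name. CPM uses TMM-scaled totals. DESeq2 1.42.0, limma 3.58.1 on FPKM or Cuffnorm values, other filters and scalings, marker scores as covariates and each library left out in turn were alternatives, and the script was tested on simulated data. The fit without varenicline 1 and 3 was chosen after seeing the data. The members, lists and covariates were chosen with earlier results of these data known. Values in every library are given for members at an unadjusted p under 0.05, for any called by DESeq2 (0) and for the 3 highest per kilobase; other tested members are given by mean and fold change, and each partner list by up to 4 genes with the smallest p. Cdh24 is described further because of its library values, which were seen first. Replicate numbers follow the order of the records. Promoters are RefSeq windows for GRCm38.p6, matched by symbol for 22 of 34 members.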

Additional observations from a re-analysis of the deposited data

Results flagged for a closer look

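In 82 sets of 6 libraries, made of each tested member or marker score in each group, 4 held a library farther from the rest than Dixon's 95% limit, where chance gives about 1 in 20, or 4.1. Cdh7 in saline 6 had 3.30 log2 CPM, while the other saline libraries had 3.61 to 3.76. Cdh15 had -0.47 log2 CPM in varenicline 3, the others of that group lying between 0.81 and 1.44, and 0.54 in saline 6, the others lying between 1.10 and 1.40. The oligodendrocyte marker score was 8.27 in saline 6 and 8.07 to 8.12 in the other saline libraries.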

How the results depend on the processing

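No paired analysis was possible because the replicate numbers were given in record order and pair no libraries. RLE scaling, other filters, log2 Cuffnorm plus 1 and log2 FPKM plus 0.1 kept the direction of every member tested; with a filter of 1 CPM, 28 members were tested. DESeq2 called 406 genes and no member, and put 2 genes of the protocadherin tail partners (1 in edgeR) at an unadjusted p under 0.05, as did FPKM plus 1 and FPKM plus 0.1 (2 each). Library totals only gave Pcdh10 0.0091, and FPKM plus 1 gave Pcdh12 0.000584. limma-voom with sample weights called 2102 genes and 8 members, with 1970 genes higher and 2368 lower unadjusted, 12 members lower, 7 adhesion partners, 3 tail partners, Cdh4 -0.093 and Pcdh18 -0.087. The cortical score called 12 genes, with 447 higher and 288 lower unadjusted, 1 member higher and 0 lower, a median of 0.027, and 1 catenin, 0 adhesion partners and 0 atypical cadherins. It gave Pcdh15 0.066, Cdh24 0.19, Pcdh8 0.079, Cdh9 -0.11, Cdh10 0.036, Cdh12 0.090, Cdh2 0.034, Pcdh10 0.00065, Cdh8 -0.055, Cdh15 0.10 and Pcdh19 0.074. The septal score gave 490 genes higher and 582 lower, 0 members higher and 1 lower, 0 tail partners, 1 atypical cadherin, Pcdh20 -0.029, Pcdh12 0.34, Cdh4 -0.045, Pcdh10 0.022, Pcdh18 -0.053 and Cdh15 0.19. The cortical score without varenicline 6 gave 785 genes lower, 1 member higher and 1 lower, a median of 0.0091, 0 tail partners, Pcdh15 0.014, Cdh9 -0.030, Cdh10 0.18, Cdh12 0.14, Cdh18 0.052, Cdh2 0.12, Cdh4 -0.37, Cdh15 0.67 and Pcdh19 0.065. Without varenicline 1 and 3 there were 643 genes higher and 919 lower, 3 members higher, 0 tail partners, 2 atypical cadherins, Pcdh20 -0.029, Pcdh12 0.031, Cdh4 -0.038, Pcdh10 0.0011, Pcdh18 -0.068 and Cdh15 0.075. The cause of these shifts was not tested.

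With each library left out in turn, adjusted calls ran from 0 to 1609 genes and from 0 to 6 members, both highest without varenicline 6. Unadjusted, 828 to 1706 genes were higher and 1089 to 2192 lower, with 5 to 6 members higher and 2 to 7 lower, 2 to 5 adhesion partners, 1 to 5 tail partners, 2 to 4 atypical cadherins and 2 to 4 catenins. Log2 fold changes ran from -0.28 to 0.039 for Cdh15, -0.058 to 0.14 for Cdh4, -0.022 to 0.0028 for Pcdh10, -0.21 to 0.29 for Pcdh12, -0.0077 to 0.10 for Pcdh18 and -0.0094 to 0.18 for Pcdh20. Depth limits Cdh26, Cdh23, Pcdh12 and Cdh15, the scarcest members tested.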

Other observations

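Cdh3 was too scarce to test, and its counts were uneven among libraries of both groups. It had 10, 11 and 33 counts in varenicline 1, 2 and 5, and 28 and 26 in saline 2 and 5. These are the 5 libraries with the highest choroid plexus marker score, at 4.81, 3.74 and 5.0 log2 CPM in the varenicline libraries and 4.84 and 4.46 in the saline libraries. The other varenicline libraries had 0, 1 and 3 counts and scores of 1.43 to 2.60, and the other saline libraries had 0 to 8 counts and scores of 1.22 to 2.34.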
